A study of Cricetiscus sungorus with 216 samples.

Results

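The genes described here build and maintain motile cilia. They were taken by name from the hypothalamic transcript tables of Djungarian hamsters (Phodopus sungorus): every gene symbol that begins with Cfap, Dnah, Dnai, Ift, Rsph or Drc followed by a digit. Isoform rows of a symbol were summed. The rule found 85 of 30171 symbols over 3 brain areas, with 72 of 20156 in the mediobasal hypothalamus (MBH), 69 of 21821 in the dorsomedial hypothalamus (DMH) and 78 of 18960 in the paraventricular nucleus (PVN). All 3 areas held 62 of them. In the MBH the members were 15 axonemal dyneins (Dnah), 7 radial spoke genes (Rsph), 3 genes of the nexin-dynein regulatory complex (Drc), 33 cilia and flagella associated genes (Cfap) and 14 intraflagellar transport genes (Ift). The rule uses names alone and takes a gene only under the symbol a table gives it, so a gene listed under an older name is not a member. Earlier results of these data were known when the rule was set.

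A motile cilium beats because dynein arms walk along a ring of microtubule doublets, while radial spokes, the central pair and the nexin-dynein regulatory complex coordinate the arms into a wave. Intraflagellar transport carries cargo along the axoneme and is needed by motile cilia and by the single primary cilium that neurons and glia carry, so Ift genes are read in many cell types. In the hypothalamus motile cilia stand on ependymal cells that line the third ventricle, next to tanycytes, and they move cerebrospinal fluid.

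The study followed male hamsters, 3 to 8 months old, through an interval timer set by day length. A reference group of 6 stayed in long photoperiod (LP), and groups of 6 were collected after 4, 8, 12, 16, 20, 24, 28 or 32 weeks of short photoperiod (SP), so that 54 hamsters gave 54 libraries for each of 3 areas. The animals carried no genetic change and received no agent, and all 8 SP contrasts share the 6 LP libraries. Tissue punches were taken on both sides from frozen sections, and the polyadenylated RNA was read as cDNA on an Oxford Nanopore sequencer. A punch mixes neurons, glia and a piece of ventricle wall. In such bulk samples fewer cells of a type and less RNA per cell cannot be told apart. Each library is a separate hamster, and the MBH and DMH libraries come from the same 54 animals.

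Depth differed widely between libraries. Total counts ran from 5996 to 13208361 in the MBH, from 149289 to 9084072 in the DMH and from 159 to 998245 in the PVN. A single predicted transcript, Gm32262, took from 8.3% to 65.7% of the counts in MBH libraries and from 13.5% to 69.1% in DMH libraries. It was left out of all totals here, and values are counts per 1e+06 of the rest (CPM). In the MBH and DMH another 12 symbols took a large and variable share: from 5.59% to 44.3% of the remaining counts in the 6 MBH LP libraries, and 81.0% in the median DMH LP library. A high share of these 12 lowers the CPM of every other gene in that library. Libraries with fewer than 10000 counts were the second 20-week MBH library, the first LP library of the PVN and a 16-week PVN library. Counts of one gene were nearly the same in several of its isoform rows, so isoform sums are not numbers of independent reads. For that reason levels are not compared between genes, and each comparison was repeated with the highest isoform of a gene alone.

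Member counts were low. Summed over 54 libraries, the 72 MBH members held 61509 counts (20681 in the highest isoform of each gene), the 69 DMH members 17070 (6202) and the 78 PVN members 17261 (12650). The median member was read in 38.5 of 54 MBH libraries, 14 of 54 DMH libraries and 29 of 54 PVN libraries. A usual filter on low counts kept 39, 13 and 14 members.

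The label of a measure of ventricle-lining ependyma was checked against marker genes of ependymal cells, which proved thin. Foxj1, the transcription factor that switches on the motile cilia programme, had 59 counts in 19 of 54 MBH libraries, 13 counts in 8 DMH libraries and 50 counts in 31 PVN libraries. Ccdc153, an ependymal marker, had 359 counts in 37 MBH libraries, 227 in 21 DMH libraries and 281 in 36 PVN libraries. Tmem212, another marker of these cells, had 3, 6 and 9 counts. Ependymal markers outside the cilium summed to a median of 160.7 CPM in the MBH over 9 genes, and to 20.9 CPM in the DMH and 570.4 CPM in the PVN over 8 genes each. Ependymal transcripts were therefore detected in each area, but the 2 defining genes Foxj1 and Tmem212 lay near the detection limit, and the genes are called here by their rule rather than by a cell type.

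Summed over all 72 members, the MBH level in LP had a lowest value of 882.1, a median of 1072 and a highest value of 1770 CPM (mean 1156, SD 312, n = 6). SP medians ran from 669.2 CPM at 20 weeks to 1061 CPM at 12 weeks. All 8 SP medians lay below the LP median, and all 8 SP groups overlapped the LP group. The 20-week group held the shallow library, and without it the 20-week median was 813.8 CPM. For members other than Ift, called motile members below, the LP values ran from 549.2 over a median of 647.6 to 1255 CPM, and the 20-week values from 0 over 337.8 to 634.9 CPM. This name is shorthand for the naming rule without Ift and does not say that each gene acts only in motile cilia. Ift members in LP ran from 295.1 over 452.5 to 515.6 CPM, and their lowest SP median was 318.0 CPM at 16 weeks. The MBH groups were thus slightly lower in SP at every time with wide overlap, and how many depended on the scale. With the 12 most counted symbols left out (a choice made after seeing the data), the LP median of all members was 1598 CPM and 7 of 8 SP medians lay below it, while only 2 of 8 did for Ift. With Gm32262 kept, 5 of 8 medians lay below for all members.

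In the DMH the summed level of all 69 members in LP ran from 18.3 over a median of 176.1 to 543.2 CPM, and SP medians ran from 25.4 CPM at 28 weeks to 233.9 CPM at 12 weeks. Of 8 SP medians 5 lay below LP, and with the 12 symbols left out 8 of 8 did (LP median 857.7 CPM). The DMH range within LP, 18.3 to 543.2 CPM, covered all 8 SP medians. In the PVN the direction was the other way on this scale: LP values ran from 0 in the library of 159 counts over a median of 1079 to 1239 CPM, and SP medians from 1037 CPM at 32 weeks to 1476 CPM at 12 weeks, with 2 of 8 below LP. Without the shallow LP library the LP median was 1080 CPM (SD 113.4, n = 5). All 8 groups overlapped LP in the DMH and in the PVN.

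**Figure D1:**
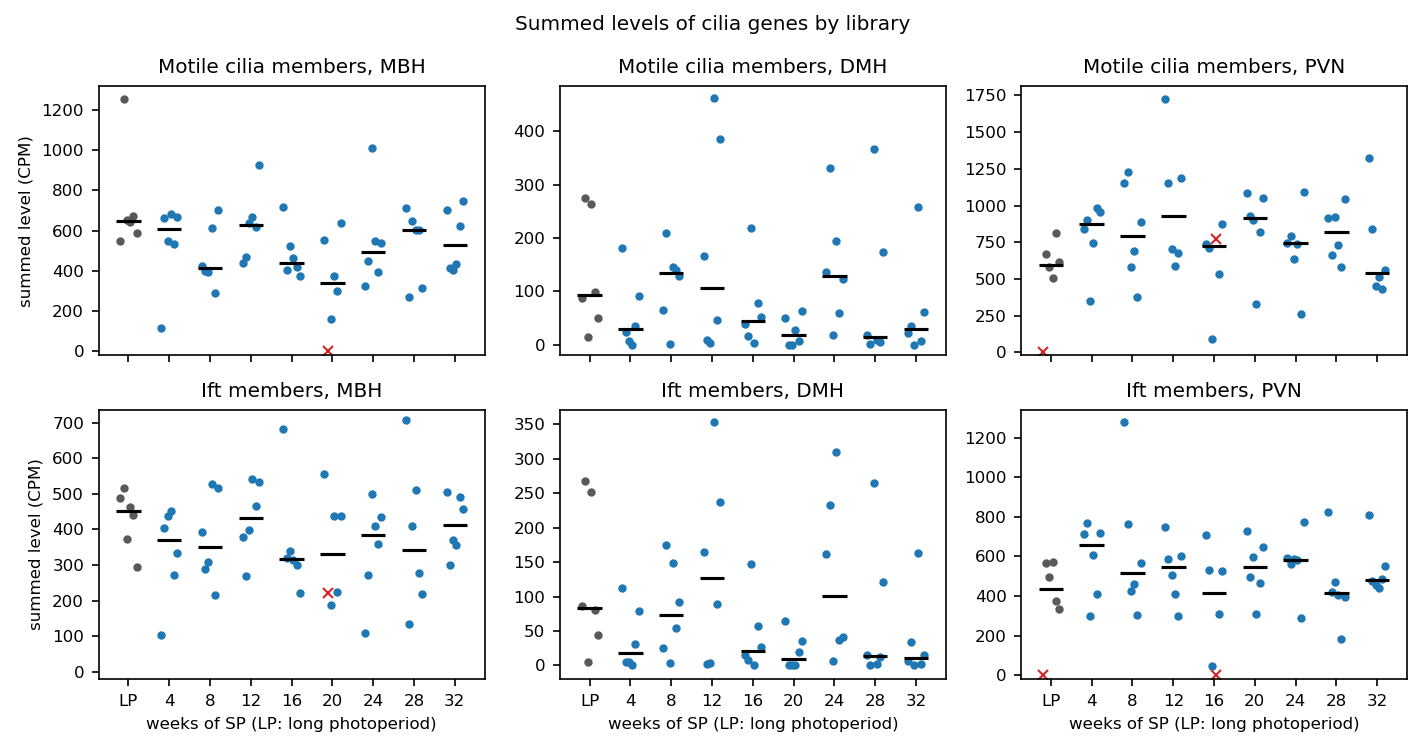
Summed level (CPM without Gm32262) of the motile members (top) and the Ift members (bottom) in each library of the MBH, DMH and PVN by weeks of SP; points are hamsters, short lines are group medians of 6, and red crosses are libraries with fewer than 10000 counts. SP points overlap the LP points in every panel, and the DMH spreads from near 0 to 462 CPM for the motile members.

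Outer dynein arms drive the beat, and their heavy chains were sparse. In the MBH, Dnah5 was read in 21 of 54 libraries, with LP values from 0 over a median of 0 to 4.55 CPM. Dnah9 was read in 25 MBH libraries, with LP values from 0 over 5.43 to 24.2 CPM and 32-week values from 0 over 0.36 to 8.54 CPM. Dnah11 reached 21.5 CPM in LP and was 0 in all 6 libraries at 28 weeks. Groups overlapped for all 3 outer arm genes. In the DMH, Dnah9 had 127 counts in 12 libraries, 3 of them LP, with LP values from 0 over 1.02 to 8.72 CPM, and Dnah5 had 7 counts in 4 libraries. In the PVN, Dnah5, Dnah9 and Dnah11 were at 0 in all 6 LP libraries and were read in 20, 24 and 14 SP libraries, with no more than 4 counts in any one. At so few counts none of these 3 genes was called in the PVN. Dnai1, an intermediate chain of the outer arm, was the best read dynein of the PVN, with 1101 counts in 52 libraries. Its LP values ran from 0 over 80.9 to 112 CPM and its 24-week values from 62.0 over 102 to 147 CPM, so the groups overlapped. Its partner chain Dnai2 had 56 counts in 23 PVN libraries. The MBH and DMH tables list these chains under their older symbols Dnaic1 and Dnaic2, which the naming rule does not take and which were looked up after the other values had been seen. Dnaic1 had 3186 counts in 52 MBH libraries and ran from 23.7 over 40.3 to 64.9 CPM in LP, with SP medians from 33.8 to 54.4 CPM. In the DMH it had 2567 counts in 41 libraries and an LP median of 27.04 CPM. Dnaic2 had 294 counts in 30 MBH libraries and 51 counts in 9 DMH libraries. Neither chain was called in the SP mean or over the 9 groups in the MBH or DMH (edgeR). Between the areas Dnaic1 was not called (log2 difference -0.50 for MBH minus DMH, SE 0.28, adjusted p = 0.173, edgeR), while Dnaic2 was higher in the MBH (1.44, SE 0.48, adjusted p = 0.0184, edgeR).

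Radial spokes link the arms to the central pair, and their genes were the most evenly read of the motile members. Rsph1, a spoke head gene, was read in 53 of 54 MBH libraries. Its LP values ran from 25.96 over 33.2 to 91.1 CPM, the 8-week values from 12.9 over 21.5 to 34.9 CPM and the 20-week values from 0 over 13.6 to 33.9 CPM. Of the 6 hamsters at 20 weeks 5 had less than the lowest LP hamster (p = 0.00866 without adjustment, 2-sided exact permutation of 6 against 6). One of the 5 was the shallow library, and no MBH member passed adjustment over the exact permutation tests. With 6 against 6 a single member could not pass it even at the smallest possible p. Rsph4a, also of the spoke head, ran from 0 over 10.1 to 12.98 CPM in MBH LP and from 2.38 over 4.40 to 6.67 CPM at 8 weeks. In the PVN, Rsph1 ran from 0 over 15.7 to 47.1 CPM in LP and from 21.7 over 51.4 to 200.2 CPM at 12 weeks, again with overlap. In the DMH, Rsph1 was read in 26 libraries and its LP values ran from 0 over 2.25 to 15.5 CPM. Rsph3a and Rsph3b are near-identical copies whose reads can be split between them, and they are not described singly.

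The nexin-dynein regulatory complex ties neighbouring doublets together. Drc1, which anchors it, was read in 51 MBH libraries, with LP values from 9.86 over 16.3 to 35.6 CPM and 12-week values from 6.36 over 27.3 to 49.4 CPM. Drc3 in the MBH ran from 1.52 over 2.97 to 15.4 CPM in LP and from 4.32 over 10.6 to 16.8 CPM at 32 weeks. Drc1 and Drc3 groups overlapped at all times in the MBH, and Drc7 had only 17 counts there. In the DMH, Drc7 had 22 counts in 4 libraries, none of them LP.

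The Cfap genes gather many axonemal proteins. Cfap126 (Flattop), a microtubule-bound protein at the cilium base and along the doublets, had 6305 counts over 10 isoform rows in 53 MBH libraries. Its highest isoform alone had 985 counts, fewer than the 2741 of Cfap36 counted in the same way. With isoforms summed, Cfap126 ran from 47.4 over 106 to 282.8 CPM in LP and from 0 over 53.4 to 79.1 CPM at 20 weeks. Cfap43 and Cfap44, which tether an inner dynein arm, ran from 3.25 over 18.7 to 25.7 CPM and from 3.25 over 25.2 to 42.3 CPM in MBH LP. At 8 weeks of SP their medians were 6.54 and 2.77 CPM, and the groups overlapped. Cfap54, a central pair gene, ran from 0 over 10.1 to 25.04 CPM in MBH LP and had a median of 15.6 CPM at 32 weeks. Cfap299 was read in 31 MBH libraries and 15 DMH libraries and reached at most 6.69 CPM in an MBH library, and the PVN table does not list this symbol.

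Only 2 members separated from LP in all 12 libraries of a weekly comparison, both in the MBH at 20 weeks. Cfap70, which sits with the outer dynein arm, ran from 5.93 over 7.16 to 26.7 CPM in LP and from 0 over 1.58 to 5.84 CPM at 20 weeks, so that the highest 20-week value lay just under the lowest LP value. Cfap97 ran from 11.9 over 17.8 to 37.6 CPM in LP and from 0 over 6.63 to 7.59 CPM at 20 weeks. For each the exact 2-sided permutation p was 0.00216, the smallest possible with 6 against 6. Among all 20115 genes read in the MBH, 0.229% did not overlap at 20 weeks, against 2 of 72 members. Over 576 member tests the smallest adjusted p was 0.596 (Benjamini-Hochberg over the exact permutation tests). With 6 against 6 this adjustment cannot be passed unless many tests lie near the smallest possible p, so it cannot decide on these 2 genes. One of the 6 libraries at 20 weeks was the shallow one, where both genes were at 0. No other MBH member separated at 20 weeks, and none at other weeks, where the share of all genes was 0.109, 0.204, 0.109, 0.149, 0.0895, 0.0696 and 0.104% at 4, 8, 12, 16, 24, 28 and 32 weeks. No DMH or PVN member separated at any week. The share of all genes that did was 0.0183, 0.00917, 0, 0, 0.211, 0, 0 and 0.0505% in the DMH from 4 to 32 weeks, and 0.095, 0.0792, 0.148, 0, 0.0844, 0.0686, 0.0422 and 0.1% in the PVN. A member at 0 in any LP library of its area could separate only upward. This held for every PVN member, since the LP library of 159 counts read none. In the DMH it held for all members but Cfap20, Cfap36, Ift81 and Rsph9, which all 6 LP libraries read.

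Intraflagellar transport genes were read more evenly. Ift20, an anterograde (IFT-B) subunit also found at the Golgi, ran from 11.8 over 16.6 to 45.4 CPM in MBH LP and from 5.96 over 8.83 to 16.9 CPM at 16 weeks. Ift27, a small GTPase of IFT-B, ran from 13.5 over 17.2 to 39.3 CPM in LP and from 0 over 12.6 to 20.7 CPM at 20 weeks. Ift88, a core IFT-B subunit, ran from 0 over 10.7 to 23.7 CPM in LP and had SP medians between 3.69 and 12.4 CPM. Ift140, of the retrograde complex IFT-A, ran from 3.03 over 5.44 to 25.7 CPM in LP and had a median of 12.3 CPM at 16 weeks. All MBH weeks overlapped LP for these 4 genes. Ift172, a peripheral IFT-B subunit, reached 221 CPM in one 20-week library, which is a single count in the shallow library. In the PVN, Ift20 ran from 0 over 48.8 to 74.5 CPM and Ift27 from 0 over 42.1 to 66.3 CPM in LP, with 28-week medians of 62.9 and 44.9 CPM. In the DMH, Ift27 was read in 38 libraries and had an LP median of 3.45 CPM.

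**Figure D2:**
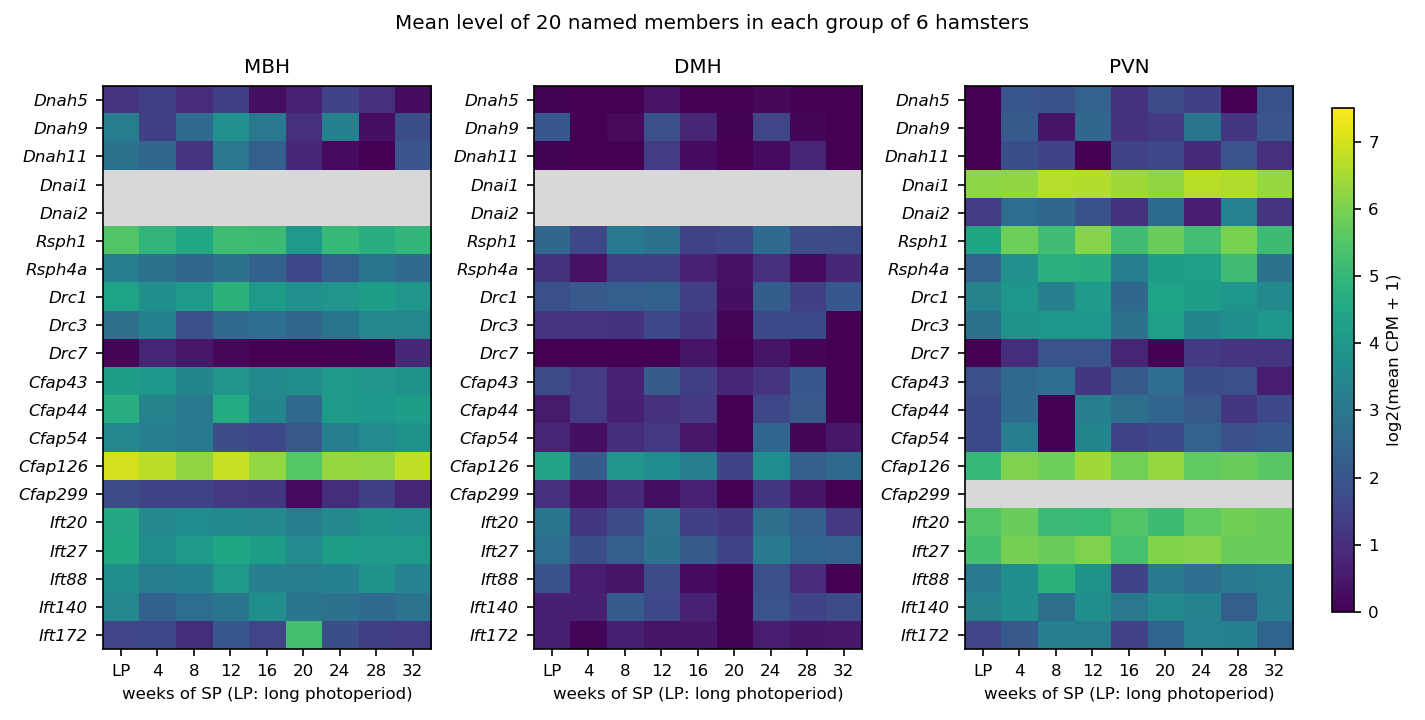
Mean level in each group of 6 hamsters, as log2(mean CPM + 1), for 20 named members (rows) by weeks of SP (columns) in the MBH, DMH and PVN; grey marks a symbol the table does not list. Cfap126 is the brightest row of the MBH and Dnai1 of the PVN, but isoforms are summed, so brightness does not rank genes. The DMH is darkest, and the bright Ift172 cell at 20 weeks of the MBH comes from 1 count in the shallow library.

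The members were tested against LP with edgeR's quasi-likelihood test over all genes of an area, with a Benjamini-Hochberg adjusted p below 0.1 as the call. In the MBH no member was called over the 9 groups, against 0.442% of all 20115 genes. Without adjustment, 9 of 72 members had p below 0.05, against 8.05% of all genes. DESeq2 called 0 members, against 0.0597% of all genes. For the mean of the 8 SP groups against LP, 1 of 72 members was called, against 0.795% of all genes (4 higher and 156 lower), and 7 had an unadjusted p below 0.05, against 6.98% of all genes. This was Cfap100, a regulator of inner arm dyneins, with a log2 fold change of -3.19 (SE 0.61, adjusted p = 0.00431, edgeR). It had 64 counts in 11 libraries, and 40 of them were in LP replicate 2, the only LP library that read it. Without replicate 2 of each group the sign turned and the adjusted p was 0.999998 (edgeR), and with the highest isoform alone no member was called. The call thus rested on 1 hamster. The next members were Cfap65 at -2.25 (SE 0.76, adjusted p = 0.28), Dnah11 at -1.83 (SE 0.73, adjusted p = 0.488) and Ift20 at -0.64 (SE 0.25, adjusted p = 0.554).

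The median log2 fold change of the MBH members in SP was -0.30, beside 0.02 over all genes, and 27.8% of members lay above 0, beside 51.5% of all genes. By role, the MBH medians were -0.48 for 15 dyneins, -0.38 for 7 radial spoke genes, -0.30 for 33 Cfap genes, -0.19 for 14 Ift genes and 0.22 for 3 Drc genes. Members share libraries and are not replicates, so these medians carry no test. No MBH member was called at any single week by edgeR or DESeq2, and between 2 and 7 of 72 members had an unadjusted p below 0.05. Of all MBH genes 0.00994, 0.0199, 0.00994, 0.0149, 0.00497, 0.00497, 0.00497 and 0.00497% were called from 4 to 32 weeks, and 4.57, 4.79, 4.9, 4.52, 4.75, 4.55, 4.05 and 4.68% had an unadjusted p below 0.05. DESeq2 called 0 to 0.0547% of all MBH genes at the single weeks. Weeks 24 to 32 against weeks 12 to 20 gave 0 calls among members by edgeR and DESeq2, against 0.00994% and 0.0149% of all genes. By edgeR 3 of 72 had an unadjusted p below 0.05 in this comparison, against 4.41% of all genes. There the 2 smallest p belonged to Dnah11 at -2.88 (SE 0.87, adjusted p = 0.44) and Cfap221, a central pair gene, at -1.63 (SE 0.60, adjusted p = 0.816).

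Markers of other cells also differed in these MBH libraries. Genes of the pars tuberalis and pituitary, which touches the base of the MBH, summed to between 1252 and 3648 CPM in LP and between 57.8 and 1425 CPM in SP, and 4 of 10 were called lower in SP (median log2 fold change -1.67). Tanycyte markers summed to between 368.6 and 798.4 CPM in LP and between 0 and 695.0 CPM in SP, with 2 of 14 called lower. Ependymal markers outside the cilium summed to between 130.4 and 327.2 CPM in LP and between 33.7 and 1103 CPM in SP (the highest value is the shallow 20-week library, without which no MBH library exceeded 327.2 CPM), with 0 of 9 called by edgeR. The part of these cells in the lower member medians was not tested. Of other motile cilia genes outside the naming rule, 0 of 77 were called in the MBH for the SP mean (median -0.13), and of genes of the primary cilium 0 of 34 (median -0.13).

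In the DMH, 7 of 69 members were called over the 9 groups, against 4.38% of all 21803 genes: Cfap100, Dnah2, Dnah12, Drc7, Dnah9, Cfap61 and Dnah7b. Without adjustment 21 of 69 had p below 0.05, against 14.2% of all genes. For the SP mean 5 members were called, all lower, against 3.73% of all genes called and 3.72% called lower, and 13 had an unadjusted p below 0.05, against 12% of all genes. Dnah9 had a log2 fold change of -2.98 (SE 0.70, adjusted p = 0.0103), and Dnah10, an inner arm heavy chain, of -2.22 (SE 0.64, adjusted p = 0.0508). Cfap206, a radial spoke factor, had -2.30 (SE 0.56, adjusted p = 0.0124), Cfap20dc -2.28 (SE 0.56, adjusted p = 0.0221) and Cfap221 -1.46 (SE 0.46, adjusted p = 0.0978), all by edgeR. Counts behind these calls were small and gathered in few libraries. Cfap100 had 35 of its 36 counts in replicate 3 at 28 weeks, and Cfap20dc had 19 counts in 6 libraries. None of the 7 was called by DESeq2 or with the highest isoform alone, and neither were the 5. DESeq2 called 0.00459% of all DMH genes over the 9 groups and 0% for the SP mean. With so few calls among all genes, its result cannot decide on these members. A filter on low counts removed all of them before the test. On simulated data the unfiltered test called more unchanged genes for the SP mean at DMH depth than its threshold allows. That simulation gave every gene the same dispersion and every library the same expected makeup apart from genes changed on purpose. False calls over the 9 groups were not counted, so it cannot decide on the calls here. No DMH member was called at any week by edgeR or DESeq2, with 6 to 10 of 69 at an unadjusted p below 0.05, or for late against mid SP, with 3 of 69. Of all DMH genes 0, 0, 0, 0, 0.00459, 0.00459, 0.00917 and 0% were called from 4 to 32 weeks and 0% for late against mid SP. An unadjusted p below 0.05 was found for 5.81, 8.32, 5.65, 5.31, 8.58, 5.79, 5.84 and 8.55% from 4 to 32 weeks and for 5.19% in late against mid SP. DESeq2 called 0 to 0.0183% of all DMH genes at the weeks and 0.00459% for late against mid SP.

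The median SP log2 fold change of the 69 DMH members was -0.34, close to the -0.29 over all genes. The DMH direction differed by role, at 0.69 for 14 dyneins, 0.07 for 7 radial spoke genes, -0.55 for 31 Cfap genes and -0.62 for 14 Ift genes. Most of the DMH dyneins were read in no LP library, where a fitted fold change depends on the prior count. Of other motile cilia genes 7 of 76 were called lower in the DMH, and of genes of the primary cilium 2 of 34.

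In the PVN no member was called over the 9 groups, against 0.0158% of all 18947 genes, or for the SP mean, against 0.0211%. Without adjustment 8 and 5 of 78 members had p below 0.05, against 6.15% and 5.26% of all genes. DESeq2 called 0 members and also 0% of all genes. The SP log2 fold changes had a median of 0.25, beside 0.07 over all genes, and the highest values with a small p were Cfap53 at 2.80 (SE 1.06, adjusted p = 0.661), Dnah9 at 2.52 (SE 0.86, adjusted p = 0.622) and Rsph4a at 1.94 (SE 0.85, adjusted p = 0.867). No week gave a call by edgeR or DESeq2, with 5 to 11 of 78 at an unadjusted p below 0.05. Of all PVN genes 0% were called at any week, and 3.88, 3.5, 3.43, 4.66, 3.4, 3.83, 3.38 and 3.3% had an unadjusted p below 0.05 from 4 to 32 weeks. The smallest adjusted p of any PVN member was 0.479, for Cfap91, which joins spokes to the doublet, in late against mid SP (log2 fold change 2.25, SE 0.56, edgeR), where 0% of all genes were called and 4 members, against 4.45% of all genes, had an unadjusted p below 0.05. With isoforms summed, no single PVN member thus differed detectably from LP. With the highest isoform alone Rsph4a was called higher at 12 weeks (2.70, SE 0.61, adjusted p = 0.068, edgeR), where the sum gave 2.54 (SE 0.95, adjusted p = 0.993).

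**Figure D3:**
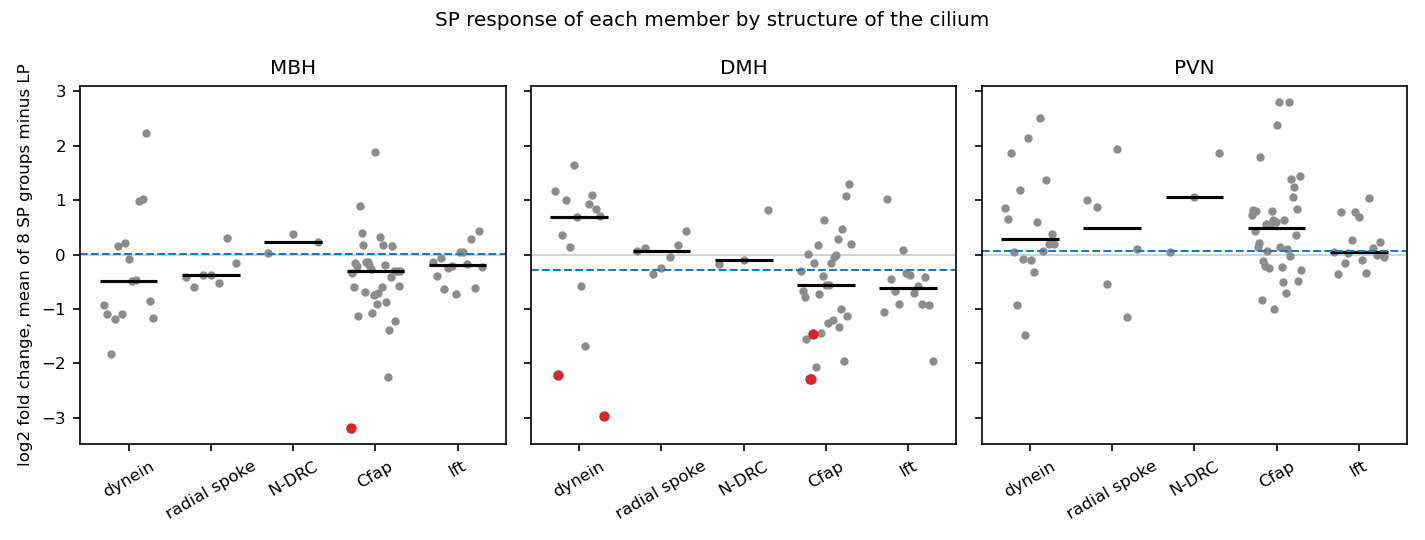
Log2 fold change of the mean of the 8 SP groups against LP for each member (points), by role and area; red marks an adjusted p below 0.1 (edgeR), black bars are medians of a role and the blue dashed line is the median of all genes. In the MBH the medians of 4 of 5 roles lie below 0, between -0.48 and -0.19, while in the PVN they lie above 0.

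The MBH and DMH punches of the same hamsters allow a comparison of areas within the animal. The fit used 68 members read through isoforms that both tables share, with each of 54 hamsters as a block. Of these, 42 were higher in the MBH and 1 was lower, beside 33.9% of 17688 genes called higher, 3.2% called lower and 37.1% in all, and a median log2 difference of 0.48 over all genes. The members had a median of 1.00, and 94.1% lay above 0. All 6 radial spoke genes tested were higher (median 1.05), as were 8 of 14 dyneins (median 1.24), 11 of 14 Ift genes (median 0.92), 16 of 31 Cfap genes (median 0.83) and 1 of 3 Drc genes. The near-identical copies Rsph3a and Rsph3b, each with 120 MBH counts in 42 libraries, are counted separately here and in all member counts. With the highest isoform alone 33 members were higher and 1 lower, beside 4204 and 893 of 17686 genes (28.8% called in all). The medians were 0.55 for members and 0.23 for all genes.

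Among the motile members, Cfap126 had the smallest p. Its level, in CPM on TMM-scaled library sizes, ran from 0 over 35.7 to 81.9 in the MBH and from 0 over 0 to 65.1 in the DMH, and it was higher in the MBH in 51 of 54 hamsters. The log2 difference was 2.45 (SE 0.32, adjusted p = 1.31e-08, edgeR). Rsph1 ran from 0 over 12.7 to 26.4 in the MBH against a DMH median of 0 and was higher in 45 hamsters (1.65, SE 0.29, adjusted p = 1.11e-05, edgeR). Drc1 was higher in 46 hamsters (1.57, SE 0.28, adjusted p = 1.89e-05, edgeR). Cfap70, Cfap74 and Cfap206 had differences of 1.94, 2.38 and 1.99. In each of these genes the DMH median was 0 and the highest DMH library reached into the MBH range, so the areas overlapped while their medians did not. The DMH libraries that read few genes are included in these medians.

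Among the transport genes, Ift88 had the largest difference, 2.46 (SE 0.39, adjusted p = 2.1e-06, edgeR), and was higher in the MBH in 42 hamsters and lower in 3. Ift81, which binds tubulin together with Ift74, differed by 1.67 (SE 0.29, adjusted p = 7.77e-06, edgeR), Ift122 of IFT-A by 1.60 and the small GTPase Ift22 by 1.51. Differences for Ift20, Ift27 and Ift172 were 0.28 (SE 0.21), 0.21 (SE 0.20) and 0.79 (SE 0.35) and were not called. Other members not called were Dnah9 at 1.02 (SE 0.58), Drc3 at 0.54 (SE 0.36) and Cfap299 at -0.47 (SE 0.45). Of the 14 transport genes 11 were thus called, and the other 3 were Ift20, Ift27 and Ift172.

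The 1 member called lower in the MBH was Cfap57, a gene needed for inner arm assembly, at -0.96 (SE 0.31, adjusted p = 0.0116, edgeR). On the TMM scale its medians were 7.54 in the MBH and 11.6 in the DMH, and the DMH was higher in 31 hamsters. On plain CPM of the highest isoform the medians were 8.47 and 2.58 and the MBH was higher in 36 hamsters. With isoforms summed on plain CPM they were 18.1 and 6.58, and the MBH was higher in 34. The direction for Cfap57 therefore turned between plain CPM and the TMM scale under both ways of counting. Without replicate 6 its difference was -0.55 and was not called (adjusted p = 0.272, edgeR).

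**Figure D4:**
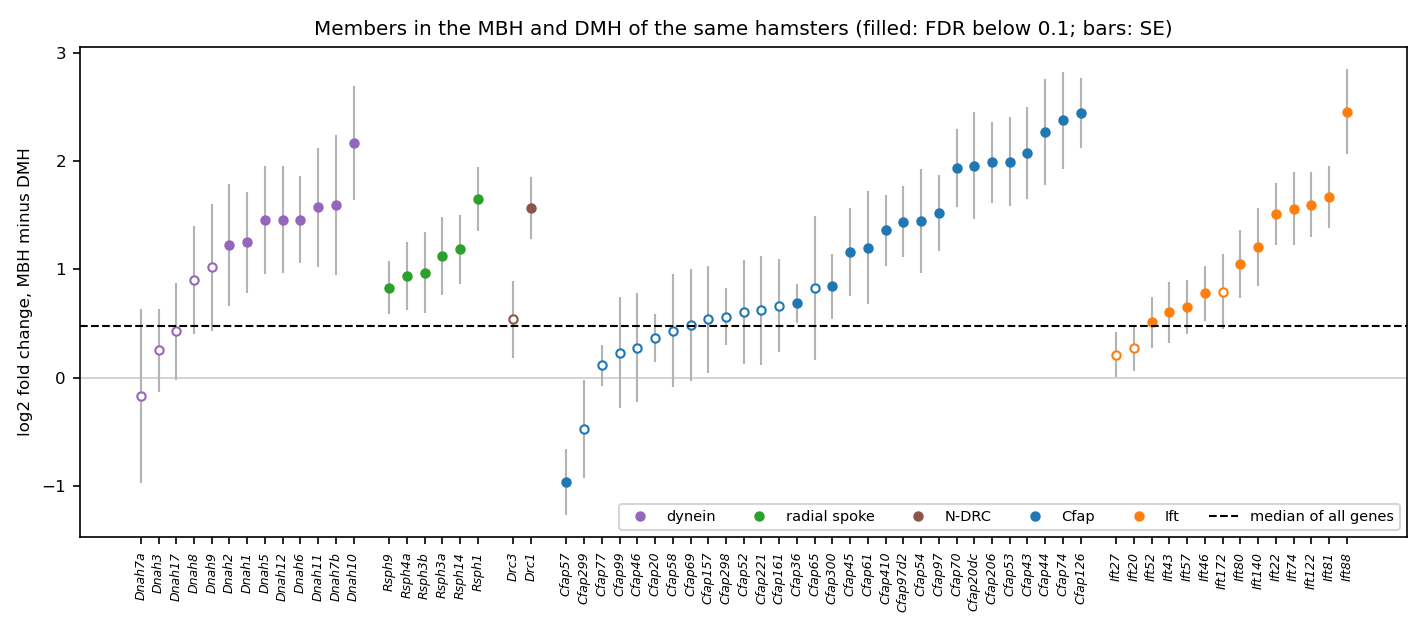
Log2 difference between the MBH and DMH of the same 54 hamsters for members grouped by role (filled: adjusted p below 0.1, edgeR; bars: SE; dashed line: median of all genes). The plot shows 65 of 68 members, since 3 with an SE of 3 or more were left out; nearly all points lie above 0 and Cfap57, whose direction turns on plain CPM, is the filled point below it.

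Other gene lists gave the setting of this area difference. Of 76 further motile cilia genes, 44 were higher in the MBH and 0 lower (median 1.04), and of 18 transport genes with other names 11 were higher (median 1.08). The 1 lower transport gene was Kif3a, the anterograde motor subunit, which is also among the 12 most counted symbols. Of 34 genes of the primary cilium 18 were higher and 0 lower (median 0.86). Many of these lists were higher too: markers of the DMH itself were higher in the MBH in 4 of 5 (median 1.47), markers of the PVN in 4 of 6 (median 1.61) and genes of the pars tuberalis and pituitary in 5 of 6 (median 2.25). Neuronal markers were higher in 7 of 10 (median 0.77), tanycyte markers in 12 of 14 (median 2.68) and ependymal markers outside the cilium in 3 of 8 (median 0.67), while oligodendrocyte markers were lower in 9 of 10 (median -1.41). Foxj1 (0.30, adjusted p = 0.812) and Ccdc153 (-0.42, adjusted p = 0.569) were not called, whereas Rfx3, a partner of Foxj1, was higher (2.47, adjusted p = 1.58e-06), as was Hydin, a central pair gene (1.39, adjusted p = 0.0243), all by edgeR. With the 12 most counted symbols left out, 43 members were higher and 1 lower (median 1.03), beside 6365 and 516 of 17676 genes (38.9% called in all, median 0.51). The part of cell makeup in the area difference was not tested.

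The SP response itself did not differ detectably between the areas. The interaction of area with photoperiod called 0 of 68 members and 0 of 17688 genes, or 0% (edgeR, hamster as block), with 2 members at an unadjusted p below 0.05, against 4.19% of all genes. DESeq2 was not run on this term. Summed over the motile members, the MBH exceeded the DMH in 52 of 53 hamsters with at least 10000 counts in both areas, with a median CPM ratio of 8.68. With the 12 symbols left out it did so in 51 of 53, and the ratio was 2.63. Across these 53 hamsters the motile sums of the 2 areas had a Spearman rho of 0.11. A hamster high in one area was thus not in general high in the other.

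Within an area, the summed motile level moved with other measures of the same library. These correlations are descriptions over 53 MBH, 54 DMH and 52 PVN libraries of at least 10000 counts, whose values share one library, its depth and its most abundant transcripts. In the MBH the motile sum had a rho of 0.79 with the Ift sum, 0.88 with other motile cilia genes, 0.78 with ependymal markers outside the cilium, 0.65 with neuronal markers. With the share of the 12 most counted symbols it had -0.80. With those 12 left out the values for the first 4 measures were 0.08, 0.55, 0.57 and -0.18. The relation to motile cilia genes and ependymal markers thus remained in part on both scales, and those to Ift genes and neuronal markers did not. Other lists also kept a positive rho with the 12 left out: tanycyte markers 0.42, choroid plexus markers 0.36 and genes of the primary cilium 0.30. With the library total rho was -0.04. In the DMH nearly all lists followed the motile sum, with rho of 0.94 for Ift, 0.92 for neuronal and 0.92 for astrocyte markers and -0.94 for the 12 symbols. With the 12 left out the first 3 values were 0.68, 0.60 and 0.61. Ependymal markers outside the cilium had 0.91 in the DMH, and 0.51 with the 12 left out.

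The PVN has no Gm32262 and was counted against other transcript identifiers. Its motile sum had a rho of 0.82 with other motile cilia genes, 0.87 with its own radial spoke members and 0.69 with the Ift sum. With markers of the PVN itself rho was 0.79, above the 0.58 with ependymal markers outside the cilium. It was 0.69 with markers of the DMH and 0.69 with genes of the primary cilium. Neuronal markers had 0.17 and oligodendrocyte markers -0.37. The single members that followed the sum of the others most closely were Rsph1 (0.80), Cfap126 (0.72) and Rsph4a (0.71) in the PVN, and Rsph1 (0.76), Cfap298 (0.74), a factor for dynein arm assembly, and Cfap36 (0.67) in the MBH. Rsph1 led in both areas. Not every member followed the others: in the PVN rho was -0.26 for Cfap221, -0.11 for Cfap97 and -0.003 for Cfap410.

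**Figure D5:**
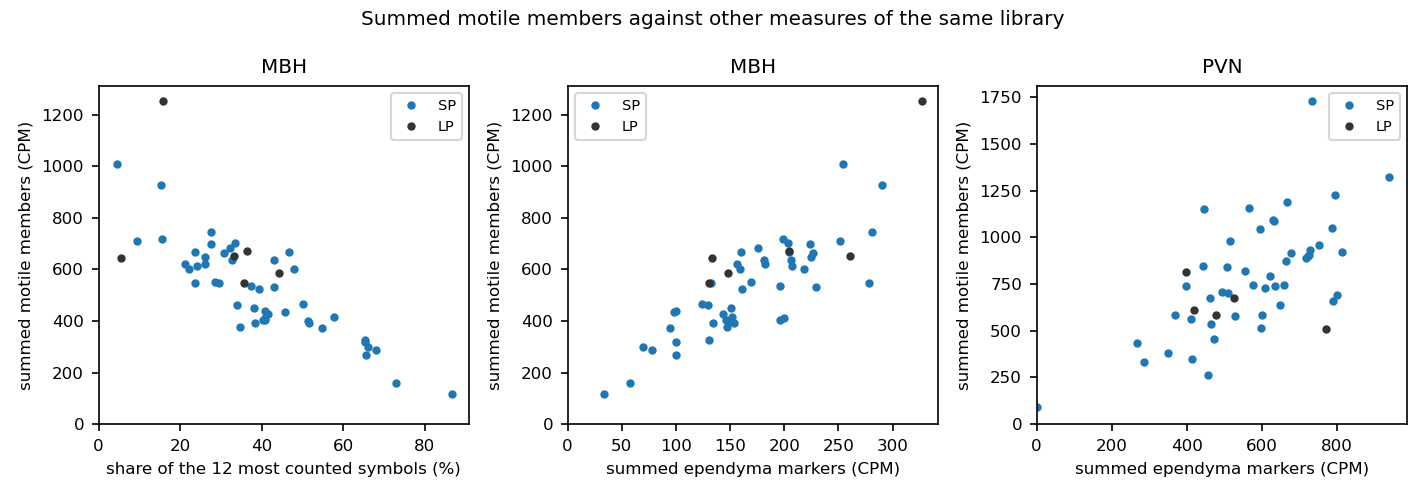
Summed motile members (CPM) of each library against the percent share of the 12 most counted symbols in the MBH (left) and against summed ependymal markers outside the cilium in the MBH (middle) and PVN (right); points are libraries of at least 10000 counts, dark for LP and blue for SP. The sum falls with the share of the 12 symbols (rho -0.80) and rises with the ependymal markers (0.78 in the MBH, 0.58 in the PVN), with LP points among the SP points.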

How the data were processed

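Punches of the MBH, DMH and PVN were sequenced as cDNA on Oxford Nanopore. The deposited tables hold estimated counts per transcript isoform, made by the authors with minimap2 and Salmon per the labels. Per the study's methods, hamster reads were aligned to the mouse genome (GRCm39), and lowly expressed transcripts were filtered out. The PVN table shares 0 isoform identifiers with the others and uses some newer symbols, although the methods name 1 genome for all areas, so PVN levels were not compared with theirs. The authors' pituitary table was not used here. Of the values, 98.5% to 99.6% were whole within 1e-06, and all were rounded.

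Isoforms were summed per symbol and Gm32262 was left out. CPM was computed here from those counts. Each area was fitted with edgeR 4.0.16 (quasi-likelihood, TMM, R 4.3.3) over 9 groups without a filter on low counts, with calls at a Benjamini-Hochberg adjusted p below 0.1 over all symbols. MBH and DMH were fitted together with the hamster as block. DESeq2 1.42.0, a filter, the highest isoform, other scalings and leaving out each replicate number were alternatives. On simulated data the unfiltered test called more unchanged genes at DMH and PVN depth than its threshold allows. Replicate numbers were taken as names only and not as pairs within an area. Samples of the same number correlated slightly more than other pairs in each area, by median r. The main fits of each area held no term for the replicate number.

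Members and gene lists were chosen with earlier results of these data known. Genes named one by one were 20 members fixed by role, those called, and those with the smallest p in a comparison.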

Additional observations from a re-analysis of the deposited data

Results flagged for a closer look

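In 27 groups of 6 hamsters and 3 summed measures (all members, motile members, Ift members), 19 values stood apart from the other 5 of their group by Dixon's test at the 95% level. Chance marks about 1 in 20 groups.

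In the MBH, LP replicate 2 was high for all members at 1770.36 CPM (next 1111.46 CPM) and for motile members at 1254.79 CPM (next 670.481 CPM). The first 4-week library was low at 220.653 CPM for all members (next 806.926 CPM) and 116.456 CPM for motile members (next 533.495 CPM). The first 16-week library was high at 1399.38 CPM for all members and 682.118 CPM for Ift members, and the third 24-week library at 1010.92 CPM for motile members. These libraries held at least 768196 counts without Gm32262.

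In the DMH, the third 16-week library was high at 367.07 CPM for all members and 219.732 CPM for motile members. The fourth 32-week library was high at 422.304 CPM for all, 258.982 CPM for motile and 163.322 CPM for Ift members, where the next values were 76.9941, 61.5953 and 33.2093 CPM.

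In the PVN, LP replicate 1, with 159 counts, was at 0 for all members and at 0 for motile members. The third 4-week library was low at 650.482 CPM for all and 350.796 CPM for motile members, and the fourth 20-week library at 332.441 CPM for motile members. The first 32-week library was high at 2132.43 CPM for all and 810.923 CPM for Ift members.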

How the results depend on the processing

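Of 243 alternative values for the main counts and levels, 30 moved by more than 1.5 times or beyond the spread. Among single members 222 alternative values kept their call, 81 lost it and 3 turned direction. Low counts limit these genes. For the MBH SP mean, where 1 member was called, DESeq2 and the highest isoform alone each gave 0, and a filter on low counts also 0, since it removed that member before the test. Leaving out one replicate number gave 0 to 2. For the DMH over 9 groups, where 7 were called, DESeq2, the later edgeR form and the highest isoform each gave 0, as did the filter, which removed the 7, an adjusted p below 0.05 gave 1, and leaving out one replicate number gave 0 to 7, with 0 without replicate 3 or 4. For the DMH SP mean, where 5 were called, DESeq2 and the highest isoform each gave 0, as did the filter, which removed the 5, the later edgeR form 1, an adjusted p below 0.05 gave 3, and leaving out one replicate number 3 to 9. Of all genes DESeq2 called 0.0348% for the MBH SP mean, 0.00459% for the DMH over 9 groups and 0% for the DMH SP mean. Over the PVN weeks the highest isoform gave 1 call instead of 0. For MBH against DMH the filter left 17 members to test, of which 13 were called, against 43 of 68 without it. Of all genes 62.2% were called with the filter (3312 of 5328), against 37.1% without it. Leaving out one replicate number gave 30 to 41 members, beside 28.57% to 38.05% of all genes. The 30 came without replicate 6 and were all higher in the MBH, beside 33.17% of all genes called. The mean MBH level in LP was 1155.72 CPM as reported, 650.446 with Gm32262 kept and 1625.27 with the 12 symbols left out, and the DMH level went from 253.76 to 728.854 with the 12 left out.

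Directions turned for Cfap221 in the DMH SP mean with DESeq2 (adjusted p = 0.999994) and without replicate 4, and for Cfap100 in the MBH SP mean without replicate 2. Leaving out one replicate number gave edgeR adjusted p from 0.0766743 to 1 for Cfap221 and from 0.00652979 to 0.999998 for Cfap100. The cause was not tested.

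Replicate numbers are shared by all groups, but samples with the same number correlated little in their deviations (median r 0.042 in the MBH, 0.078 in the DMH and 0.050 in the PVN, beside -0.007, -0.022 and -0.013 for other pairs). Of same-number pairs 22.7, 45.4 and 26.4% had an r over 0.1, not every pair, and the numbers were taken as names only. That choice does not show that samples of one number share nothing, and the main fits of each area held no term for the number. With the replicate number as a block the calls went from 1 to 0 for the MBH SP mean, from 7 to 0 for the DMH over 9 groups and from 5 to 3 for the DMH SP mean.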

Other observations

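By Spearman correlation over libraries, the genes whose CPM most resembled the motile sum outside the members were, in the MBH, Myl12b, Myl12a, Zcchc18, Ubb and Chmp5, with rho from 0.83 to 0.82 over 53 libraries, of 8972 genes compared. Tppp3, on the list of other motile cilia genes, came next (0.82). In the PVN they were Anxa5 (0.80 over 52 libraries, of 4191 genes), Ndn (0.76), Btf3, Ostc, Pdia6, Trh, the thyrotropin-releasing hormone of PVN neurons (0.73), Zcchc12 and Sst, somatostatin (0.72). In the DMH 3906 of 6694 genes had a rho above 0.8. These values share libraries, depth and composition, and are a description.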
